A study of Mus musculus with 6 samples.

Results

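The probes described here are those that the array's own scanner output names by a RefSeq mRNA accession and that sit on a single spot, which were 103 of 59709 probes. Another 15 probes with such a name were printed on 20 spots each and were left out. The RNA came from primary microglia of C57BL/6 mice, shaken off mixed glial cultures of P0 cerebrum, and was labelled with Cy3 for a one-colour Agilent array (Mouse LncRNA Array V2.0). Resting cells were measured on 3 arrays, and cells given 10 ng/ml interleukin-4 (IL-4) for 24 h, the cytokine used here to obtain the M2 state, on another 3. No genotype or other agent separated the groups, and the labels give neither the sex of the pups nor whether the 3 arrays of a group came from separate cultures, so p-values measure the spread between arrays, which may be technical. RefSeq gave a gene symbol for 97 of the 103 probes, all protein coding, and 6 are named by their accession alone. Gm3286 and Ppp2r3d had 2 probes each, which left 95 different genes.

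Microglia are the resident macrophages of the brain, and IL-4 acts on them through its receptor and the transcription factor STAT6. The canonical genes of that response were not among these probes. None of the 189 genes in the lists for IL-4 response, M1 polarization, mTOR signaling, polycomb, cell cycle, glycolysis and cell type markers had a member probe, so the labelled cell type could not be checked on them. The set instead held housekeeping genes beside large groups of multicopy genes known mainly from germ cells, the early embryo and the vomeronasal organ. Chromosome Y carried 23 of the probes, chromosome 7 carried 14, and chromosomes 13 and X carried 10 each. Runs of adjacent protein-coding genes were included, the longest being Brox, Aida, Mia3, Taf1a and Hhipl2 on chromosome 1. A run on chromosome 13 held Ccl28, Hmgcs1, Nim1k and Zfp131, and one on X held Vamp7, Spry3 and Tmlhe.

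Signal over background differed between the arrays, and IL-4 array 2 stood apart. The median processed signal of the negative probes was between 2.67 and 7.37 on the other 5 arrays and 71.2 on IL-4 array 2, where 67.7% of the negative spots were themselves scored well above background, against 0.417 to 11% elsewhere. Being scored well above background on that array is therefore no firm sign of signal. On IL-4 array 1, 18658 spots, 39 of them members, carried one identical signal of 4.64, and those members have no order there. By the scan date in the scanner output, the resting arrays shared a scan with IL-4 array 2, and IL-4 arrays 1 and 3 had a scan each. With the scan as a block, the fit therefore sets the resting arrays against a lone IL-4 array, array 2. No member spot was flagged as an outlier or saturated.

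Expression of the 103 members was split. A signal well above background, the scanner software's own call, was found on all 6 arrays for 35 members, on 1 to 5 arrays for 44 and on none for 24. These counts include the calls on IL-4 array 2, which are not firm. Members such as Ssty2, Sly and Gm20816 were seen on that array alone. Of all 59709 probes, 18872 were seen on all 6 arrays and had enough values to be tested. All 5 genes for transcription and nuclear proteins were seen on every array, as were 3 of 4 metabolic enzymes, 3 of 4 genes of vesicle and membrane traffic and 2 of 3 histones. No vomeronasal receptor, defensin or X-linked multicopy gene was seen on all 6, and only 2 of 23 Y-linked genes were. Per array, the members well above background numbered 64, 46 and 62 on resting arrays 1, 2 and 3, and 45, 68 and 40 on IL-4 arrays 1, 2 and 3. In the same order these were 62.1, 44.7, 60.2, 43.7, 66.0 and 38.8% of members. Over all non-control spots the shares were 61.7, 40.2, 60.0, 45.3, 80.7 and 38.5%.

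**Figure D1:**
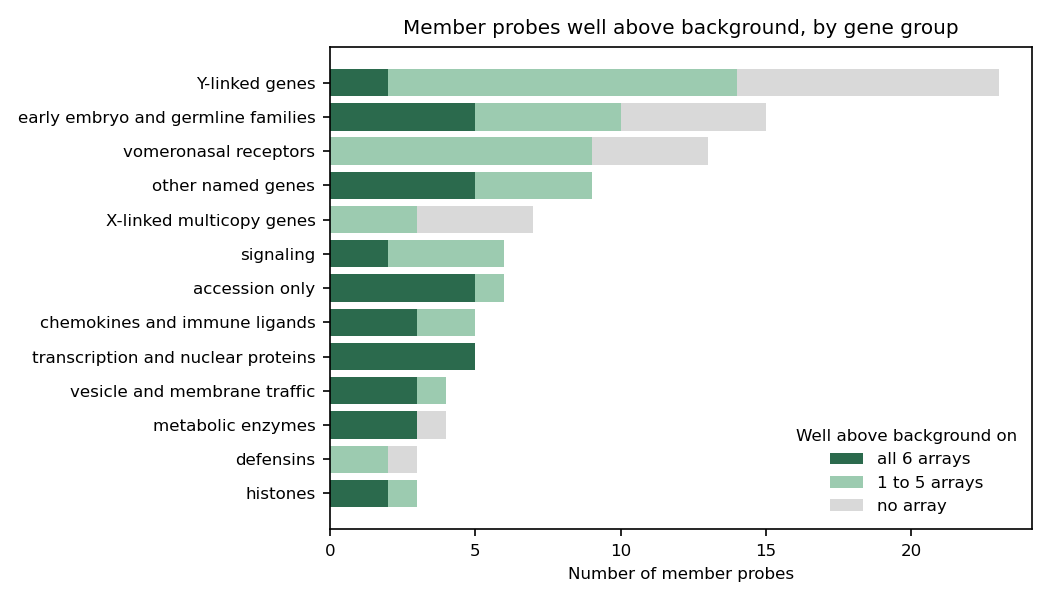
Number of member probes in each gene group (x axis), divided by how many of the 6 arrays scored the probe well above background. Genes for transcription and nuclear proteins were seen on all 6 arrays, whereas 9 of 23 Y-linked and 4 of 7 X-linked multicopy genes were seen on none.

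With IL-4, 3 of the 57 tested members passed the limits and all 3 were lower, namely Spry3, a Sprouty protein that restrains receptor tyrosine kinase signaling, 1 of the 2 probes of Gm3286, and the probe NM_009485. No member passed the limits upward. Members detected on 3 or more arrays were tested, and the limits were a fold change of 2 or more together with an unadjusted P of 0.05 or less in limma, run on quantile-normalized log2 signal over 32992 tested probes. The 3 calls were 5.26% of the tested members, and 4.94% of all tested probes passed the same limits, 1.1% higher and 3.84% lower. After Benjamini-Hochberg adjustment in limma 0 members and 0 probes passed (0%), and the smallest adjusted p of a member was 0.893, and the largest 0.993, against 3 members with an unadjusted P of 0.05 or less (5.25% of all tested probes). The methods' t-test called 1 member before adjustment, against 2.53% of all tested probes, and 0 members after it. The share of members called was near that of all tested probes. The filter bears on the direction of these calls, since Spry3 entered the test through the 3 resting arrays alone and NM_009485 through 2 resting arrays and IL-4 array 2, on which the background call is not firm.

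More of the tested members had negative than positive differences with IL-4. Of the 57 tested, 13 had a log2 fold change (IL-4 minus resting) above 0, or 22.8% against 40.2% of all tested probes. The median log2 fold change was -0.35 over the members and -0.15 over all tested probes. The 35 members seen on all 6 arrays had a median of -0.17 with 9 above 0, and the 22 seen on 3 to 5 arrays had a median of -0.80 with 4 above 0. Over all probes the same classes had medians of -0.07 and -0.34. A dimmer member could enter the test through the group in which it was higher, so these medians are descriptions only. The direction of the members depended on the scaling, since without normalization between arrays their median was 0.09 with 52.6% above 0, while that of all probes was 0.32.

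The arrays bounded few of these differences closely. The 95% confidence interval of the log2 fold change lay wholly between -1 and 1 for 8 of the 35 members seen on all arrays. For 49 of the 57 tested members the interval reached a 2-fold change in some direction. The interval extended to either side by a median of 0.999 for members seen on all 6 arrays and of 1.69 for those seen on 3 to 5. The spread between IL-4 arrays was the wider one, with a median SD of 1.20 on the log2 scale in the dimmer members against 0.51 between resting arrays. Over all probes tested on 3 to 5 arrays the same medians were 1.14 and 0.57.

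**Figure D2:**
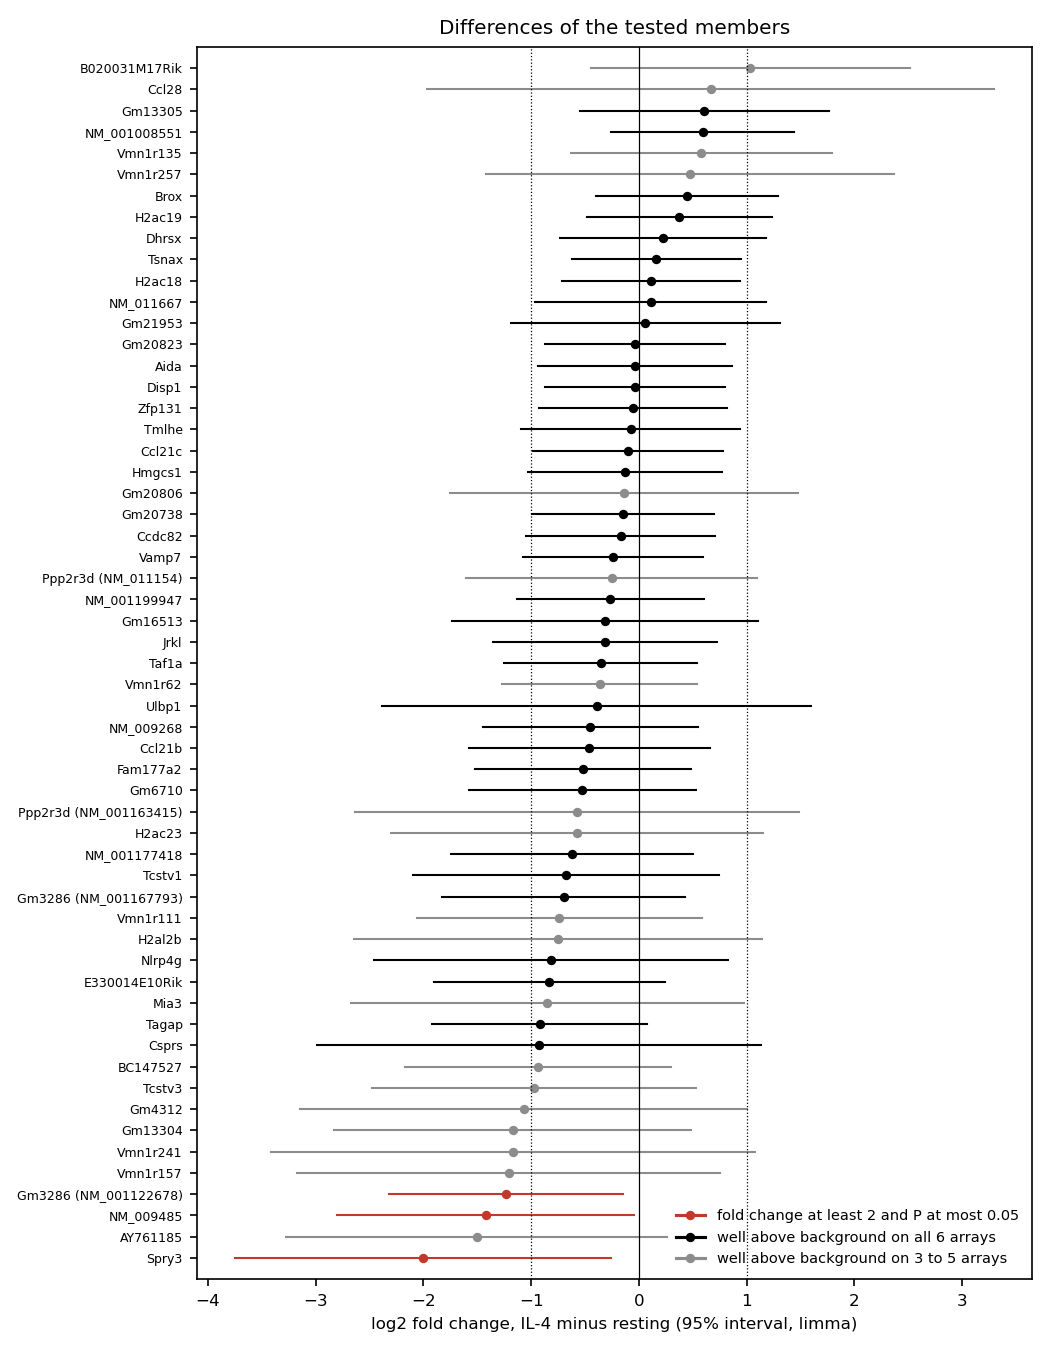
Log2 fold change of each of the 57 tested members (x axis, IL-4 minus resting), with the 95% interval from limma. The 3 members past the limits are red and lie below 0, and 49 of the 57 intervals reach the dotted lines that mark a 2-fold change.

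Of the tested members, Spry3 had the most negative log2 fold change, though it was detected on the resting arrays alone. Its normalized log2 signal was 5.35, 6.31 and 5.76 on resting arrays 1, 2 and 3, and with IL-4 it was 5.01, 2.21 and 4.19 on arrays 1, 2 and 3. Every IL-4 array lay below every resting array, and none of the IL-4 arrays scored it well above background. The fitted log2 fold change, which uses IL-4 signals not above background, was -2.0 ± 0.74 (SE; limma, adjusted p = 0.893). Measured against the lowest signal that counts as detected on each IL-4 array, the bound for Spry3 was 2.70-fold lower. That bound leaned on IL-4 array 2, whose background call is not firm, and without that array it was 1.47-fold. The log2 fold change was -3.60 with the scan as a block and -1.33 without IL-4 array 2. Over 15 alternatives it ran from -3.60 to -0.66, the latter with normexp background correction, and passed the limits in 10. The call was lost with normexp, with the replicate number as a block, with the methods' t-test, and without resting array 2 or 3.

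The 2 probes of the predicted gene Gm3286 gave different calls. The probe NM_001122678 read 6.66, 6.93 and 6.95 at rest and 4.86, 6.33 and 5.64 with IL-4, with a log2 fold change of -1.23 ± 0.46 (SE; limma, adjusted p = 0.893). The groups did not overlap. The probe NM_001167793 read 6.81, 7.35 and 6.75 at rest and 7.06, 6.14 and 5.62 with IL-4, so that IL-4 array 1 lay inside the resting range, and its log2 fold change was -0.70 ± 0.48. The 2 probes parted most on IL-4 array 1. The called probe passed the limits in 5 of 15 alternatives, with values from -1.76 to -0.51. It lost the call with the scan as a block (-0.52), with normexp (-0.51), without normalization between arrays (-0.85), under 75th percentile scaling, with an intensity trend, and when any array other than IL-4 array 2 was left out.

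NM_009485, for which RefSeq gave no symbol, was lower with IL-4, with a log2 fold change of -1.42 ± 0.58 (SE; limma, adjusted p = 0.893). It read 4.40, 5.23 and 5.51 at rest and 4.63, 2.73 and 3.52 with IL-4. Its processed signal on IL-4 array 2, before normalization, was the highest of the 6 arrays, at 50.3. The groups overlapped, because IL-4 array 1 lay above resting array 1. The background call held on 2 resting arrays and on IL-4 array 2. It passed the limits in 5 of 15 alternatives, with values between -2.32 (scan as a block) and -0.34 (normexp). The call was lost without normalization between arrays (-0.44), under 75th percentile scaling (-0.85), without IL-4 array 2 (-1.07), with normexp, with the replicate number as a block, with an intensity trend, with the methods' t-test, and without resting array 2, resting array 3 or IL-4 array 3.

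Groups did not overlap for 4 of the tested members (7.02%), against 10.9% of all tested probes, 4.58% with IL-4 above and 6.32% with IL-4 below. Spry3, Gm3286 (NM_001122678) and E330014E10Rik were lower on every IL-4 array, and NM_001008551 was higher on every one. The exact two-sided permutation p was 0.1 for each, the smallest that 3 arrays against 3 can give. E330014E10Rik read 7.18, 7.80 and 6.96 at rest and 6.92, 6.72 and 5.82 with IL-4, so the groups were parted by the small gap between resting array 3 and IL-4 array 1. Its log2 fold change was -0.83 ± 0.45. NM_001008551 read 10.27, 10.85 and 10.92 at rest and 11.29, 11.32 and 11.20 with IL-4, the closest IL-4 arrays of these 4 probes, with a log2 fold change of 0.59 ± 0.36.

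**Figure D3:**
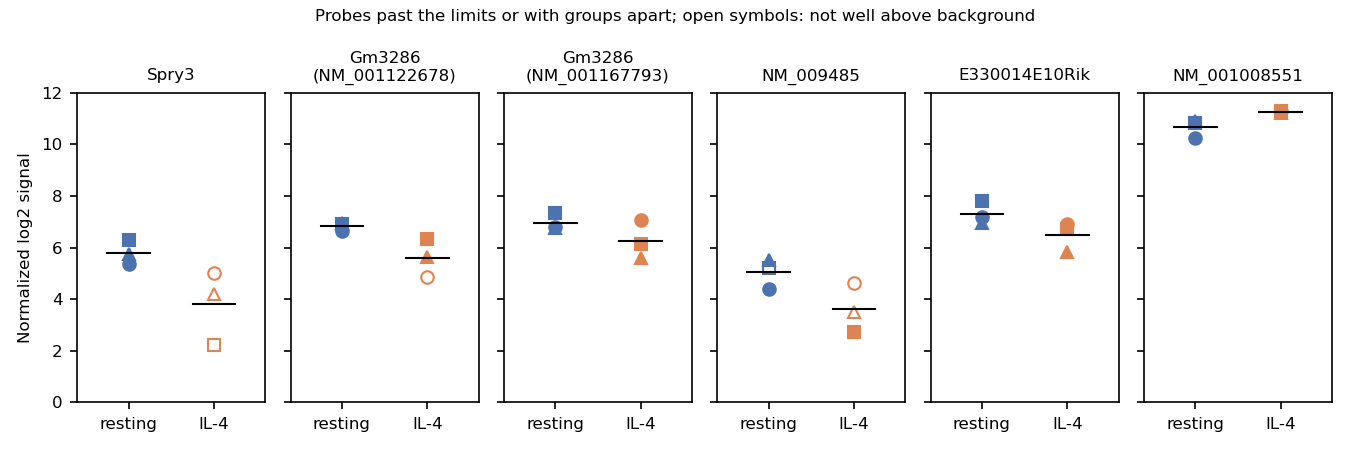
Normalized log2 signal (y axis) on each array for the 3 called probes, the second Gm3286 probe and the 2 other probes with groups apart, with a bar at each group mean. Circles, squares and triangles are arrays 1, 2 and 3, and open symbols are not well above background, as for all 3 IL-4 arrays of Spry3.

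Among the brightest members were the H2A histone genes H2ac18 and H2ac19, whose products package DNA into nucleosomes. H2ac19 read 14.16, 14.46 and 14.64 at rest and 14.71, 14.57 and 15.11 with IL-4, a log2 fold change of 0.38 ± 0.36. H2ac18 read 13.47, 13.68 and 14.02 at rest and 13.78, 13.77 and 13.96 with IL-4, a log2 fold change of 0.11 ± 0.35. The groups overlapped in each gene, and the small positive value of H2ac18 turned to -0.08 under 75th percentile scaling. The third, H2ac23, was dim and variable, at 5.09, 5.95 and 5.0 against 5.69, 3.16 and 5.46. H2ac18 and H2ac19 lie close to each other on chromosome 3 and on opposite strands. Their promoter windows (RefSeq, GRCm38.p6, 300 bases each, at chr3:96245247-96245546 on the plus strand and chr3:96240325-96240624 on the minus strand) are shown because the letters the pair shares cover most of each window, and capitals mark the longest run in common, of 219 letters.
H2ac18: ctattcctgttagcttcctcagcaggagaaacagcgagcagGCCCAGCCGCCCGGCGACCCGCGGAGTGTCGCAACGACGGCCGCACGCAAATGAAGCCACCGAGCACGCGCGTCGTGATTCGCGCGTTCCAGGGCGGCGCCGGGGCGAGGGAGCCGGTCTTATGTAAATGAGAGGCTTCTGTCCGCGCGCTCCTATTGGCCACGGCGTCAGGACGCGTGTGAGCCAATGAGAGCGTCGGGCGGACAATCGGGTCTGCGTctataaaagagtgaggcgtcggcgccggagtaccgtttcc
H2ac19: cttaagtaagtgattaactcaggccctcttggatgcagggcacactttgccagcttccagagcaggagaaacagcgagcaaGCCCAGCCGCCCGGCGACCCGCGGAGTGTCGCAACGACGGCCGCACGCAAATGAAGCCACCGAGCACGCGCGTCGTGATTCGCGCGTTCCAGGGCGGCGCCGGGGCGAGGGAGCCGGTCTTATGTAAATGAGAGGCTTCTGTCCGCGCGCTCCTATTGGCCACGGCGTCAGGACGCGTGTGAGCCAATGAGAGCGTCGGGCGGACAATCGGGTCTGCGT
Probe sequences were not used here, so whether a probe for one copy also binds the other was not checked, and the levels of such near-identical copies are uncertain.

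None of the 3 tested metabolic enzymes passed the limits. Hmgcs1, the cytosolic HMG-CoA synthase of cholesterol synthesis, read 13.64, 13.91 and 13.56 at rest and 13.78, 13.86 and 13.09 with IL-4. IL-4 array 3 was the low one, and the log2 fold change of -0.13 (95% interval -1.02 to 0.77) turned positive without it. Tmlhe, which acts in carnitine synthesis, had a log2 fold change of -0.08 (interval -1.09 to 0.94). Dhrsx, a dehydrogenase/reductase, had one of 0.23 (interval -0.73 to 1.18). Amy2a5, a pancreatic amylase, was well above background on no array.

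Of the genes of vesicle and membrane traffic, Brox was the only one with a positive value. Brox, which carries a Bro1 domain, read 12.71, 12.75 and 13.25 at rest and 13.56, 13.21 and 13.27 with IL-4. Only IL-4 array 2 fell within the resting range, by a small margin, and the log2 fold change was 0.45 ± 0.36. Vamp7, a SNARE of late endosomes and lysosomes, had a log2 fold change of -0.24 (interval -1.07 to 0.60), and Disp1, which releases hedgehog ligands, one of -0.04 (interval -0.87 to 0.80). Mia3, which helps load collagen for export from the endoplasmic reticulum, was dim, with resting array 2 at 3.28 and the other two resting arrays at 5.62 and 5.77. Its IL-4 arrays read 3.52, 3.66 and 4.95, and it passed the limits only when resting array 2 was left out. Mia3 entered the test through 2 resting arrays and IL-4 array 2, whose background call is not firm.

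The 5 genes for transcription and nuclear proteins were seen on every array and none passed the limits. Tsnax, the partner of the RNA-binding protein translin, read 12.11, 12.09 and 12.09 at rest and 12.37, 12.34 and 12.05 with IL-4, a log2 fold change of 0.16 (interval -0.62 to 0.95). Zfp131, a zinc finger protein, had one of -0.06 (interval -0.93 to 0.81) and Ccdc82 one of -0.17 (interval -1.04 to 0.71). Taf1a, a subunit of the RNA polymerase I selectivity factor, had -0.35 (interval -1.25 to 0.54) and Jrkl had -0.31 (interval -1.35 to 0.72). The groups overlapped for all 5 genes.

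**Figure D4:**
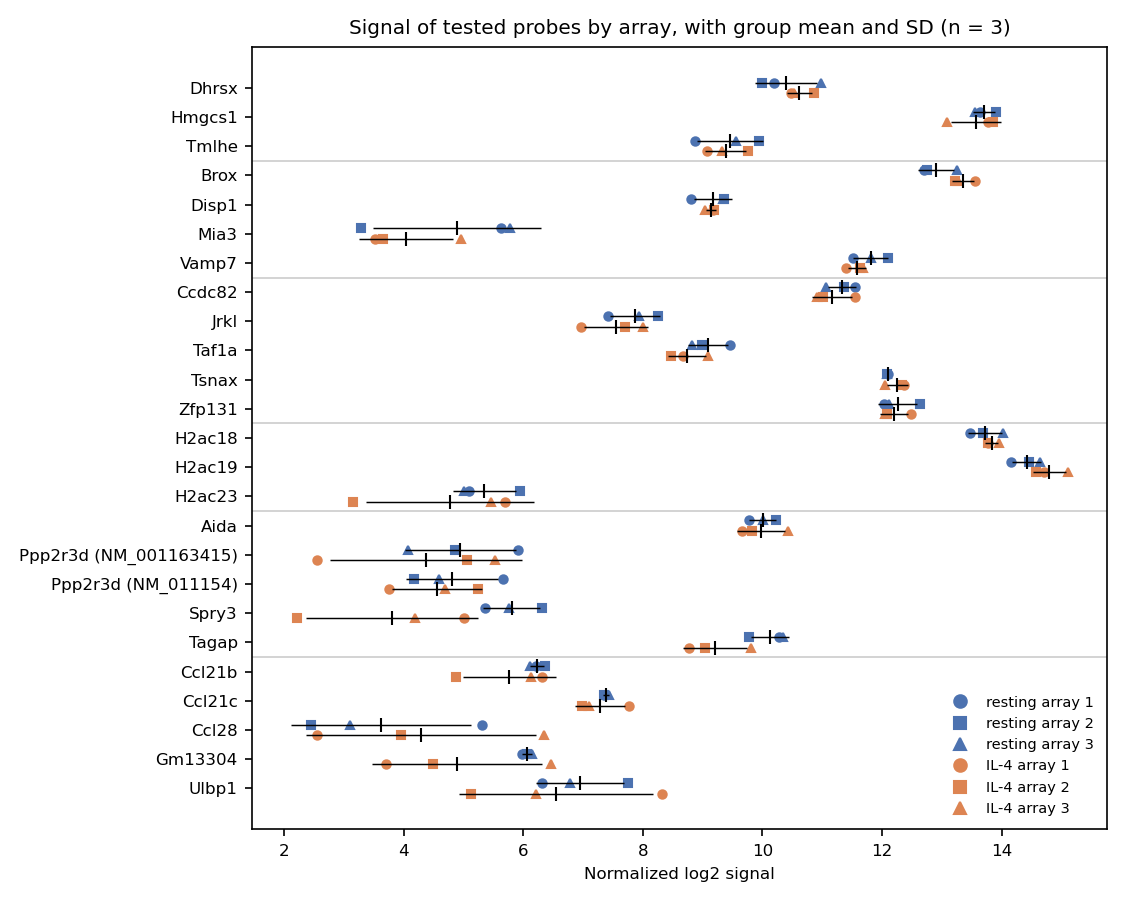
Normalized log2 signal (x axis) of the 25 tested probes in the metabolic, vesicle, nuclear, histone, signaling and chemokine groups on each array, with group mean (tick) and SD (line, n = 3). Resting and IL-4 arrays overlap for every probe but Spry3.

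All 5 tested signaling probes, 2 of them for Ppp2r3d, had negative values, and Spry3 alone passed the limits. Among all tested probes 40.2% were above 0. Tagap, a gene of activated T lymphocytes, read 10.28, 9.77 and 10.34 at rest and 8.78, 9.03 and 9.81 with IL-4. IL-4 array 3 lay just inside the resting range, and the log2 fold change was -0.92 ± 0.42. Leaving out IL-4 array 3 brought it past the limits, at -1.20. Aida, an axin-interacting protein, had a log2 fold change of -0.03 (interval -0.94 to 0.87). The 2 probes of Ppp2r3d, a regulatory subunit of protein phosphatase PP2A, had -0.25 and -0.57, and both turned positive with the scan as a block (0.43 and 0.12). Both entered the test through 2 resting arrays and IL-4 array 2, whose background call is not firm. Nim1k, a protein kinase, was well above background on 1 resting array and was not tested.

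No chemokine or immune ligand passed the limits. Ccl21c, one of the mouse copies of the CCR7 ligand CCL21, read 7.35, 7.35 and 7.44 at rest and 7.76, 6.98 and 7.10 with IL-4. Ccl21b read 6.22, 6.36 and 6.11 against 6.31, 4.87 and 6.12, so that IL-4 array 2 alone was low after normalization. Its processed signal on that array, before normalization, was the highest of the 6 arrays, at 135. Gm13304, a predicted gene placed with them, was even at rest (5.98, 6.06 and 6.14) and spread with IL-4 (3.71, 4.49 and 6.46), with a log2 fold change of -1.17 ± 0.70. Ulbp1, a ligand of the natural killer receptor NKG2D, read 6.31, 7.75 and 6.78 at rest. With IL-4 it ran from 5.13 on array 2 to 8.32 on array 1, and its sign turned when IL-4 array 2 was left out. Before normalization the processed signal of Ulbp1 on that array was 147, against 93.8, 135 and 96.8 at rest. Ccl28, a chemokine of mucosal tissues, was well above background on 1 resting and 2 IL-4 arrays, and its interval of -1.96 to 3.30 was the widest of these genes.

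In the group assembled by symbol for families of the early embryo and germ line, 8 of 9 tested probes had negative values and 1, Gm3286 (NM_001122678), passed the limits. Of all tested probes, 40.2% had a positive value. The 9 include both probes of Gm3286, and binding to near-identical copies was not checked, so they are not separate measurements of 9 genes. Tcstv1 and Tcstv3, genes of the 2-cell embryo, had log2 fold changes of -0.68 (interval -2.09 to 0.74) and -0.97 (interval -2.47 to 0.53). Tcstv1 read 8.52, 9.01 and 8.97 at rest and 9.07, 8.51 and 6.90 with IL-4, so its value rested on IL-4 array 3. Nlrp4g read 6.91, 6.61 and 6.87 against 7.14, 4.43 and 6.38, so its value of -0.82 rested on IL-4 array 2. Its processed signal there, 118 before normalization, lay within the range of the other arrays. BC147527 had -0.93 ± 0.52 and Gm16513 had -0.31 ± 0.60. The exception in direction was B020031M17Rik, which read 4.65, 5.51 and 4.77 at rest and 5.59, 7.30 and 5.14 with IL-4. Its log2 fold change of 1.03 ± 0.63 was the largest positive value of any tested member, and it was 0.43 without IL-4 array 2. Obox2, Tdpoz5, AF067063 and both Pramel members were on no array well above background.

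Vomeronasal receptors detect pheromones in the nose, and no member of that group passed the limits. Of 13 probes, 6 were tested, 4 with a negative value, and 4 were seen on no array. The tested values ran from -1.21 (Vmn1r157) to 0.58 (Vmn1r135). Vmn1r157 read 5.91, 5.97 and 6.25 at rest and 6.53, 3.05 and 4.94 with IL-4, and Vmn1r241 read 4.47, 4.91 and 5.23 against 6.02, 2.60 and 2.48. In both genes IL-4 array 1 was above every resting array while the other IL-4 arrays were below. Before normalization, the processed signal of Vmn1r157 on IL-4 array 2, 63.4, lay within its resting range. That of Vmn1r241, 42.4, lay above its resting range. Vmn1r62 and Vmn1r111 had -0.36 and -0.74, and Vmn1r257 had 0.47. Vmn1r62 entered the test through 2 resting arrays and IL-4 array 2, whose background call is not firm. Vmn1r259 was not tested and had no IL-4 array well above background, and its bound of at least 1.51-fold lower was gone without IL-4 array 2. The defensin AY761185, of a family of antimicrobial peptides, read 4.01, 5.72 and 4.64 at rest and 4.65, 2.11 and 3.08 with IL-4. It entered the test through the resting arrays alone, and no IL-4 array was well above background, so its fitted log2 fold change of -1.51 ± 0.75 rests on undetected signal. The bound for AY761185, 1.33-fold lower, leaned on IL-4 array 2, whose background call is not firm. It was gone without that array or without resting array 2.

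Most Y-linked members belong to multicopy families of spermatids, such as Sly, Ssty1 and Ssty2. Well above background were 4, 3 and 6 of the 23 on resting arrays 1, 2 and 3 and 3, 13 and 2 on IL-4 arrays 1, 2 and 3. IL-4 array 2, the array with the bright negative probes, thus had more than the other 5. Gm20823 and Gm20738 were seen on every array and were the steadiest of the 4 tested Y-linked probes, the first at 6.63, 6.46 and 6.54 against 6.88, 6.26 and 6.39 and the second at 6.79, 6.29 and 6.35 against 6.33, 6.54 and 6.12. Their log2 fold changes of -0.03 and -0.15 had intervals of -0.87 to 0.80 and -0.99 to 0.69, and both turned positive without normalization between arrays (0.47 and 0.29). The other tested Y-linked probes, H2al2b and Gm20806, had -0.75 (interval -2.64 to 1.14) and -0.14 (interval -1.76 to 1.47). Gm20806 entered the test through 2 resting arrays and IL-4 array 2, whose background call is not firm.

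On IL-4 array 2, 4 Y-linked probes read at least 1 log2 unit above every other array. Ssty2 read 2.53, 4.69 and 3.44 at rest and 4.09, 6.82 and 4.98 with IL-4, and was well above background on IL-4 array 2 alone. That array's background call is not firm, so no fold is given. Gm20747 read 6.71 on IL-4 array 2 against 3.52 to 4.42 elsewhere, Gm20816 read 5.86 against 2.38 to 3.80, and Gm20867 read 5.50 against 2.16 to 3.25. The part of the array's background in these readings was not tested. Among the 7 X-linked multicopy genes none was tested, 3 were seen on 2 resting arrays and no IL-4 array (Gm10488, Gm14819 and Gm10147), and 4 were seen on none. Those 3 were seen on resting arrays 1 and 3, where 61.7 and 60.0% of all non-control spots were well above background. On IL-4 arrays 1, 2 and 3 the shares were 45.3, 80.7 and 38.5%.

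**Figure D5:**
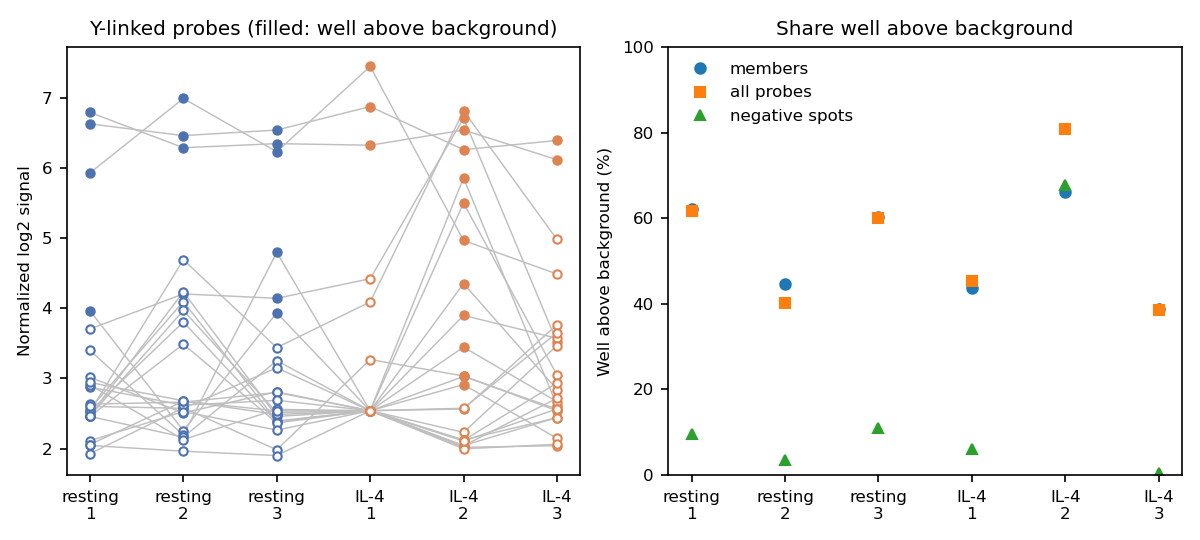
Left, normalized log2 signal (y axis) of the 23 Y-linked probes on each array (x axis), 1 line a probe, with filled points well above background. Right, percent of members, of all probes and of negative spots well above background on each array, with IL-4 array 2 highest in all 3.

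The members outside these groups gave no call besides NM_009485. Gm13305 read 12.06, 12.39 and 12.66 at rest and 12.10, 13.21 and 13.63 with IL-4, a log2 fold change of 0.61 ± 0.49, and its 2 higher IL-4 arrays brought it past the limits when IL-4 array 1 was left out (1.05). Gm4312 read 5.43, 5.55 and 6.16 against 2.54, 5.65 and 5.75, so its value of -1.07 rested on IL-4 array 1, where it had the shared lowest signal. Csprs was the most variable of them at rest, at 8.13, 7.21 and 9.87 against 7.01, 6.51 and 8.91, with a log2 fold change of -0.93 ± 0.87. The brightest member by the mean of all 6 arrays was NM_001199947 (14.62, beside 14.61 for H2ac19, which was the brighter one with IL-4), at 14.86, 14.69 and 14.70 against 14.82, 14.59 and 14.05, with -0.26 ± 0.37. Signals of different probes do not rank their transcripts.

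STAT6 binds a palindromic motif of TTC and GAA with 4 letters of any kind between them. It was searched for in the RefSeq promoter windows, and since it is its own reverse complement 1 search covers both strands. It was found in 3 of 80 windows of member genes, in Amy2a5, Gm20809 and Ppp2r3d, against 6.95% of the 32851 windows of all genes. Ppp2r3d alone of these was tested and was not past the limits, and neither of the other two was well above background on any array. A match is a description of letters and not of binding.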

How the data were processed

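Microarray analysis was run on 3 resting and 3 IL-4 arrays, grouped by the sample labels. The authors deposited the Agilent Feature Extraction (version 10.7.3.1) output, in which the processed signal of a spot is a background-subtracted intensity, not scaled between arrays. The authors also deposited a quantile-normalized log2 table of 14055 probes, which held none of these members and was not used. The array design names the mm9 build. Log2 processed signals of 59994 non-control spots, flagged spots left out, were quantile normalized, and probes detected over background on 3 or more arrays, with 2 or more values in each group, were fitted by condition in limma (version 3.58.1, R 4.3.3) and adjusted over all tested probes. Bounds use the lowest signal well above background on each array. Normexp (offset 50) used median spot signals. The fits were tested on simulated data.

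The members and lists were chosen with earlier results of these data known. The rule named called members, the 10 largest rises and falls, the 5 brightest and listed members. Gene groups were assembled from the symbols, and the other members named were chosen after their values were seen. Lists that need gene descriptions were not applied. Alternatives covered normalization, background, filter, flags, each array left out, replicate or scan as a block, an intensity trend and the methods' t-test. Only 3 arrays per group limit the precision.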

Additional observations from a re-analysis of the deposited data

How the results depend on the processing

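Limits are the 3 arrays per group, the high background of IL-4 array 2, the tied lowest signals of IL-4 array 1, and probes whose matches to near-identical copies were not checked. No member passed after adjustment under any alternative, and the smallest adjusted p of a member was 0.0539, with the scan as a block. The causes of the changes below were not tested.

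The 3 calls became 1 (1.75%) under 75th percentile scaling, without normalization between arrays or with an intensity trend (Spry3 each time). Over all tested probes those settings called 3.85, 1.13 and 3.92%. The methods' t-test called 1 (Gm3286, NM_001122678), against 2.53% of all tested probes. Normexp gave 0, against 0.82%. Requiring all 6 arrays gave 0 of 35, against 2.60%, and it removes the 3 called probes. With no filter 6 of 103 were called (5.83%, against 5.23% of all probes), and with the scan as a block 13, of which 1 was higher (22.8%, against 26.9%). Leaving out 1 array gave 0 to 10 calls, 0 without resting array 3, 1 without resting array 2 (Mia3) and 10 without IL-4 array 1, against 2.55, 3.12 and 12.1% of all tested probes in those 3 fits. The members with groups apart, 4 in all, numbered 8 to 23 on fewer arrays (14.0 to 40.4%, against 17.2 to 31.8% of all tested probes), with 23 without IL-4 array 1. Fewer arrays part the groups more often. Over the same fits the median log2 fold change ran from -0.39 to -0.28 and the share above 0 from 26.3 to 33.3%. Without normalization between arrays the median of the members moved to 0.09 and the share above 0 to 52.6%, against 72.6% of all probes, and with the scan as a block that share was 35.1%, against 37.0% of all probes. Same-numbered arrays deviated from their group means with correlations of -0.22, 0.14 and -0.09. These values cannot tell whether such arrays shared a culture, since differences between arrays in background and scan enter them. With the replicate number as a block 1 member was called (Gm3286, NM_001122678), against 4.85% of all tested probes.

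Without normalization between arrays, Aida (0.15), Ccl21b (0.29), Ccl21c (0.28), Disp1 (0.13), Gm20738 (0.29), Gm20806 (0.71), Gm20823 (0.47), H2ac23 (0.42), Hmgcs1 (0.12), Jrkl (0.0074), Ppp2r3d (NM_001163415) (0.205), Ppp2r3d (NM_011154) (0.39), Tmlhe (0.088), Ulbp1 (0.25), Vmn1r241 (0.091), Vmn1r62 (0.50) and Zfp131 (0.15) changed sign. Under 75th percentile scaling, Dhrsx (-0.035), Gm20806 (0.30), Gm20823 (0.064), Gm21953 (-0.23), H2ac18 (-0.079), H2ac23 (0.0066), Tsnax (-0.045) and Vmn1r62 (0.093) changed sign. With normexp, Disp1 (0.026), Gm20806 (0.016) and Gm21953 (-0.20) changed sign. With the scan as a block, Disp1 (0.015), Gm20738 (0.064), Gm20806 (0.97), Hmgcs1 (0.15), NM_009268 (0.12), NM_011667 (-0.25), Ppp2r3d (NM_001163415) (0.12), Ppp2r3d (NM_011154) (0.43) and Tmlhe (0.29) changed sign. With 1 array left out, the log2 fold change spanned 0 for Aida (-0.26 to 0.13), Ccl21c (-0.34 to 0.056), Ccl28 (-0.33 to 1.53), Disp1 (-0.22 to 0.062), Gm16513 (-0.90 to 0.21), Gm20738 (-0.28 to 0.0098), Gm20806 (-0.81 to 0.25), Gm20823 (-0.22 to 0.10), Gm21953 (-0.37 to 0.53), H2ac18 (-0.014 to 0.26), H2ac23 (-0.99 to 0.26), Hmgcs1 (-0.26 to 0.12), NM_011667 (-0.26 to 0.31), Ppp2r3d (NM_001163415) (-1.24 to 0.34), Ppp2r3d (NM_011154) (-0.65 to 0.18), Tmlhe (-0.38 to 0.17), Ulbp1 (-1.27 to 0.34), Vmn1r257 (-0.18 to 1.12) and Zfp131 (-0.19 to 0.13). Over the 57 tested members, 770 single values kept their direction and side of the limits, 22 passed the limits newly, 25 lost them and 73 changed sign. The filter settings, the replicate number as a block, the intensity trend and the methods' t-test reuse the same log2 fold change. No sign change was possible there, so these counts do not measure how well direction held.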
